A study of Mus musculus with 4 samples.

Results

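Pvalb interneurons of the mouse hippocampus were examined as the nuclei that held UMIs (unique molecular identifiers, counts of single transcripts) of both the GABA pathway and Pvalb, the gene of the calcium buffer parvalbumin. Barcodes entered with 200 or more detected genes and no more than 5% of UMIs from mitochondrial genes. Such a barcode was a member when it held at least 2 summed UMIs of Gad1, Gad2 and Slc32a1 and at least 1 UMI of Pvalb. It also had to hold fewer than 3 Sst UMIs and no UMI of Vip or Lamp5. The rule selected 143 nuclei out of 19475 kept nuclei and out of the 1810 nuclei that passed the GABA threshold. The members were therefore chosen on the counts of these 7 genes, and levels of these genes in the members describe the choice and are no result.

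Nuclei came from hippocampi of B6 mice at 9 months of age, with the hippocampi of 1 genotype pooled into a single droplet library. The 4 libraries analysed were WT (7 hippocampi), EKO (7 hippocampi, loss of Apoe), P301S (8 hippocampi, carrying a transgene for human P301S tau) and P301S/EKO (7 hippocampi, the transgene together with loss of Apoe). The labels name neither the tau line and the promoter that drives it nor the Apoe allele, and the study's other genotypes were not analysed here. The series title concerns tau-related neurodegeneration and its dependence on apoE, and the design sets the tau transgene and loss of Apoe against each other.

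Parvalbumin interneurons are fast-spiking inhibitory cells that release GABA onto the soma (basket cells) or the axon initial segment (axo-axonic cells) of pyramidal neurons. Kv3 potassium channels repolarise their membrane quickly enough for high firing rates, synaptotagmin 2 serves as their fast calcium sensor of release, and many of them are wrapped in a perineuronal net of chondroitin sulphate proteoglycans. In the hippocampus they pace gamma rhythms and sharp-wave ripples.

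Where 4 values follow each other below without names, they run WT, EKO, P301S, P301S/EKO. Each genotype had 1 library, so no test between genotypes was possible and no p-value is given. All intervals below are 95% intervals that cover counting error only and not the spread between animals. The member UMIs summed to 138568, 80120, 188301 and 77322. The median member held 2796, 2428, 3162 and 2295 UMIs, against 2306, 1602, 2329.5 and 1712 in the other GABA nuclei. Between 19 and 69 barcodes were shared by a pair of libraries, and no member's barcode was shared. No doublet caller was run on these nuclei, and members holding markers of another class are counted below instead.

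WT gave 40 members, EKO gave 31, P301S gave 45 and P301S/EKO gave 27. Of the GABA nuclei they made up 7.74% (Clopper-Pearson interval 5.58 to 10.4), 7.18% (4.93 to 10.03), 9.47% (6.99 to 12.5) and 6.99% (4.66 to 10.01). The P301S library had the highest share and the 4 intervals overlapped. Of all kept nuclei the members were 0.727%, 0.568%, 1.53% and 0.484%, and here the interval of P301S (1.12 to 2.05) lay above the other 3. GABA nuclei as a whole were 16.2% of kept nuclei in P301S against 9.39% in WT, 7.91% in EKO and 6.92% in P301S/EKO. More interneuron nuclei and fewer recovered nuclei of other classes cannot be told apart in 1 library.

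**Figure D1:**
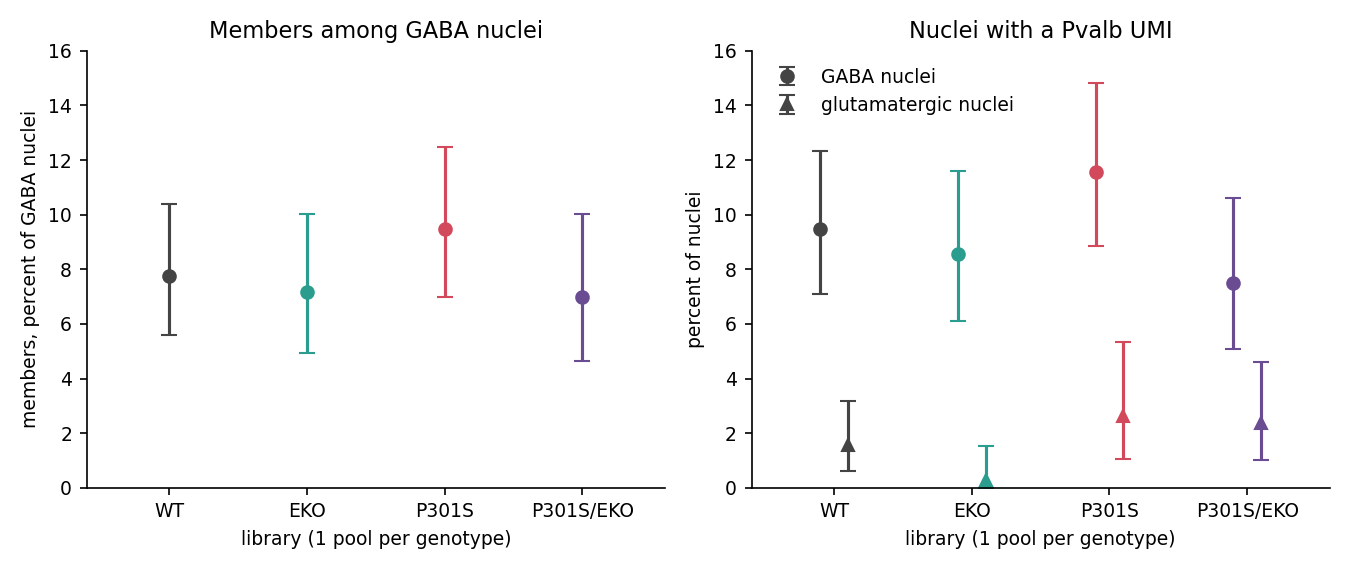
Left, members as a percent of GABA nuclei in each library. Right, percent of GABA nuclei (circles) and of glutamatergic nuclei (triangles) with a Pvalb UMI; bars are 95% Clopper-Pearson intervals. Member shares lie between 6.99% and 9.47% with overlapping bars, and glutamatergic nuclei lie below GABA nuclei in every library.

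Pvalb was detected thinly. Exactly 1 UMI was found in 33, 21, 28 and 19 members, and no member held more than 5. Because free RNA in droplets can add a UMI to any nucleus, the share of GABA nuclei with a Pvalb UMI was set beside that of glutamatergic nuclei, defined by at least 2 Slc17a7 UMIs and no GABA UMI. GABA nuclei had a Pvalb UMI in 9.48%, 8.56%, 11.6% and 7.51%, at median depths of 2367, 1686.5, 2450 and 1739 UMIs. Glutamatergic nuclei had one in 1.55%, 0.274%, 2.62% and 2.37%, at higher median depths of 2686, 2418, 2919 and 2182 UMIs. The GABA intervals did not overlap the glutamatergic ones in any library. With every nucleus thinned to 2000 UMIs, which left out 2869, 3896, 1272 and 4055 shallower nuclei, members made up 8.03%, 11.3%, 9.44% and 9.78% of GABA nuclei. EKO was then the highest. Thinned to 1000 UMIs, which left out 129, 1060, 0 and 1247 nuclei, the shares were 3.94%, 4.42%, 5.04% and 4.20%, with P301S the highest.

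Nuclei just inside and just outside the thresholds were compared as a description. Kcnc1, the Kv3.1 potassium channel, stood at 857 CPM (counts per 1e6 UMIs of the summed nuclei) in the 101 members with 1 Pvalb UMI and 975 CPM in the 42 members with 2 or more. It stood at 450 CPM in 969 nuclei that met the GABA, Sst, Vip and Lamp5 limits without a Pvalb UMI. Inpp5j, an inositol polyphosphate 5-phosphatase, followed the same order with 449, 511 and 193 CPM. Cacna2d2, a calcium channel subunit gene, and Bcan, a net proteoglycan gene, were lower with 2 or more Pvalb UMIs than with 1, at 288 against 353 CPM and 399 against 446 CPM, and both were lowest without Pvalb, at 167 and 197 CPM. The 40 members with exactly 2 GABA UMIs had 825 CPM of Kcnc1, against 533 CPM in 63 nuclei with 1 GABA UMI and 167 CPM in 181 nuclei with none. Bcan differed less across that limit, at 369, 356 and 219.6 CPM. Of the members, 24 held 1 or 2 Sst UMIs, and 11 further Pvalb-holding nuclei were left out by the Sst limit. Those 11 had 487 CPM of Kcnc1 and 441 CPM of Npy, a peptide of many Sst cells, against 717 and 154 CPM in the 24.

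The label was checked against 24 other genes known from the parvalbumin class. Of the 22 found in the files, 8 were higher in members than in other GABA nuclei in 4 of 4 libraries, 7 in 3, 3 in 2, 3 in 1 and 1 in none. All 8 were among the 15 that had at least 20 member UMIs. They were Kcnc1, Syt2, Nek7, Satb1, Mef2c, Btbd11, Cntnap4 and Slit2. Syt2, the calcium sensor named above, was at 65.0, 74.9, 117 and 90.5 CPM in WT, EKO, P301S and P301S/EKO members and at 7.59 to 21.7 CPM in other GABA nuclei. In Sst-marked nuclei (at least 3 Sst UMIs, no Vip or Lamp5 UMI) Syt2 was at 18.8 CPM in EKO and at 0 in the other 3 libraries. Of the 8 genes, Satb1 alone was lower in members than in Sst-marked nuclei. Its ratio there was 0.688 to 0.811 over the 4 libraries. Lhx6, the transcription factor of interneurons from the medial ganglionic eminence, was detected in members of all 4 libraries at 57.7, 49.9, 101 and 38.8 CPM, on 34 UMIs in all. Other GABA nuclei had 29.8, 47.2, 42.1 and 42.5 CPM of Lhx6, and Sst-marked nuclei 53.1, 100, 60.1 and 61.5 CPM. Kcnc2, the Kv3.2 channel gene, and Cplx1, a complexin gene of vesicle release, were each higher in 2 libraries and lower in the other two, with ratios of 0.469 to 2.10 and 0.510 to 2.39. These contrasts follow from how the members were selected and are given without a test.

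Over all genes with at least 100 UMIs in members and other GABA nuclei together in each library, 9 of 1041 (0.865%) were at least 1.5-fold higher in members in each of the 4 libraries and 14 (1.34%) were at least 1.5-fold lower. With median-of-ratios scaling the split was 7 higher and 21 lower, with at least 2 Pvalb UMIs per member 3 and 23, and without the mixed nuclei defined below 9 and 44. Inpp5j (chr 11, 3494375 to 3504821, minus strand, mm10) led, at 339, 736, 489 and 388 CPM in WT, EKO, P301S and P301S/EKO members against 157, 208, 180 and 171 CPM in other GABA nuclei, a ratio of 2.16 to 3.54. Kcnc1 (chr 7, 46396497 to 46438704, plus strand) followed with ratios of 2.03 to 2.43, and Cacna2d2 with 1.98 to 2.58. Kcna1, which encodes the axonal Kv1.1 channel, had ratios of 1.60 to 2.67. Bcan, which encodes brevican, had ratios of 1.84 to 2.96. The remaining genes past the threshold were Cit, Coro6, Sept4 and Gm15856, with Cit (citron kinase) detected in all 40 WT and all 31 EKO members. With at least 2 Pvalb UMIs per member the least extreme log2 ratios of Inpp5j, Cacna2d2, Coro6 and Kcna1 were 0.55, 0.41, 0.49 and 0.15, inside 1.5-fold, and those of Kcnc1 and Bcan were 0.69 and 0.68, past it. Without mixed nuclei that of Bcan was 0.47. Mef2c, a transcription factor gene, came just below the threshold with ratios of 1.41 to 2.02.

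**Figure D2:**
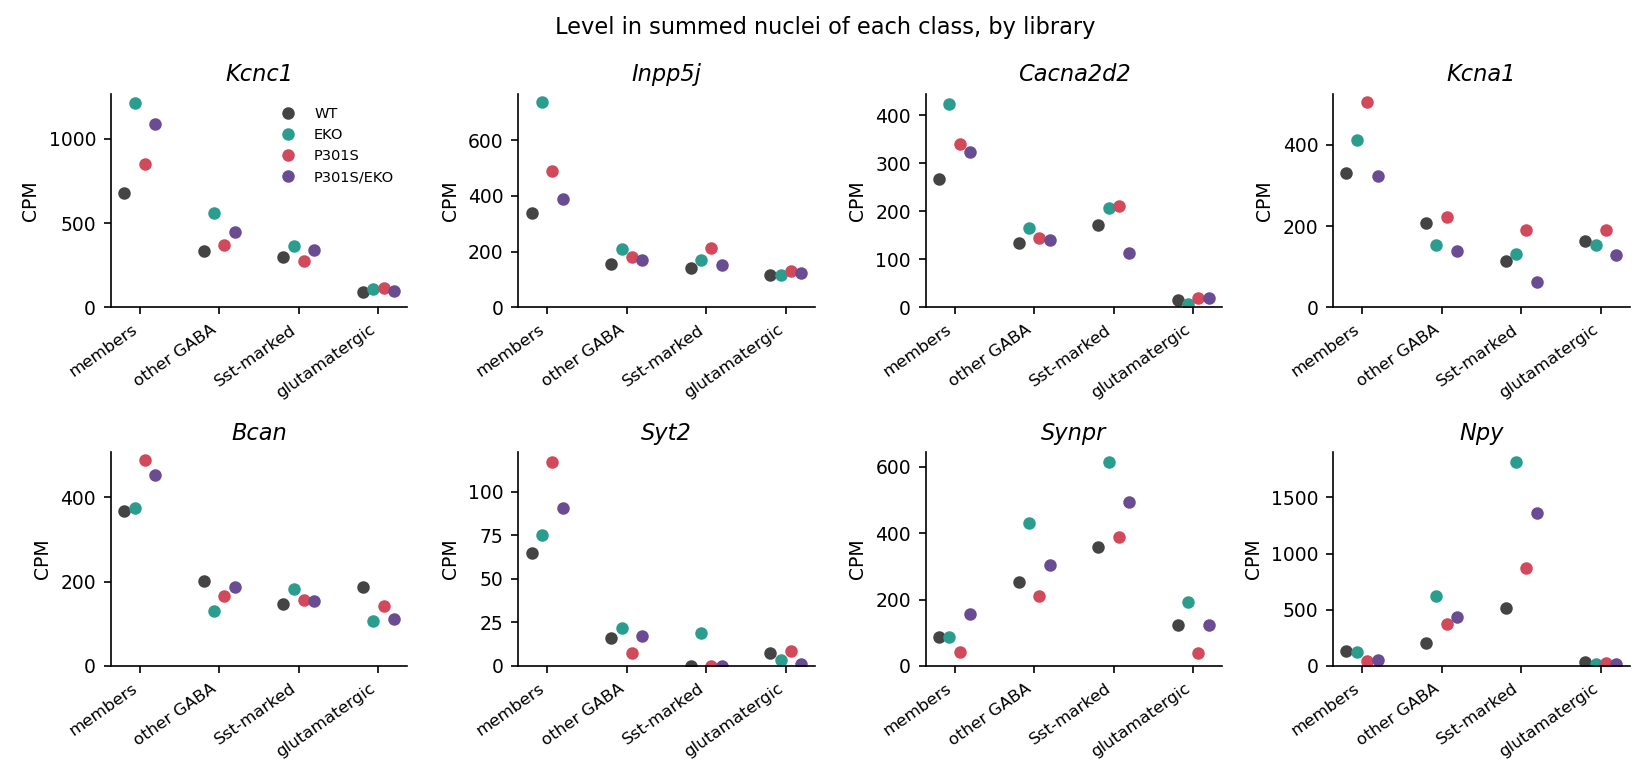
CPM of 8 genes in the summed nuclei of members, other GABA nuclei, Sst-marked nuclei and glutamatergic nuclei; each point is 1 library, coloured by genotype. Kcnc1, Inpp5j, Cacna2d2, Kcna1, Bcan and Syt2 are higher in members than in other GABA nuclei of the same library, and Synpr and Npy are lower.

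Among the genes lower in members, Synpr, which encodes the vesicle protein synaptoporin, was at 86.6, 87.4, 42.5 and 155 CPM in WT, EKO, P301S and P301S/EKO members against 253, 430, 210 and 305 CPM in other GABA nuclei, 1.97-fold to 4.94-fold lower. Npy was 1.61-fold to 8.84-fold lower, and Bcl11a, a transcription factor gene, 1.61-fold to 7.86-fold lower. Chl1, Pld3, Pnck, Dlx6os1 and Resp18 were also lower in all 4 libraries. Adarb2 and Npas1, genes of interneurons from the caudal ganglionic eminence, had at most 2 and at most 3 member UMIs in a library. Htr3a, on the same list of 18 genes, was found in 0, 0, 1 and 3 members, with up to 6 UMIs in 1 P301S/EKO member. Of 12 axo-axonic markers, Trps1 alone had more than 10 UMIs in a library, with 10, 26, 34 and 9 UMIs in 9, 12, 19 and 6 members, and its levels are given by genotype below. Vipr2 had 1 UMI in EKO and Nkx2-1 had 1 UMI in P301S, with none elsewhere. The basket and axo-axonic types were not separated here.

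Members differed among themselves in depth and in how much RNA of other classes they held. UMIs per member ran from 1117 to 9097 in WT, 1211 to 4353 in EKO, 1254 to 19928 in P301S and 1008 to 6098 in P301S/EKO. The largest P301S member held 10.6% of that library's member UMIs and 512 of its 1230 Apoe UMIs. A UMI of Slc17a7, the vesicular glutamate transporter of excitatory neurons, was present in 11, 2, 6 and 1 members. Only 8, 18, 4 and 7 members held no UMI of Slc17a7 or of a set of glial and vascular markers that included Mbp, Aqp4, Slc1a3, C1qa, Csf1r, Pdgfra and Flt1. The other members are called mixed nuclei below.

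Summed over each marker list, the levels of other classes differed between libraries. The 9 astrocyte markers summed to 577, 137, 1397 and 543 CPM in WT, EKO, P301S and P301S/EKO members. The 10 microglial markers summed to 548, 74.9, 1354 and 1229 CPM, and the 9 oligodendrocyte markers to 1689, 237, 2055 and 1306 CPM. The 16 glutamatergic markers were highest in WT members, at 1501 CPM, against 924, 781 and 983 CPM in EKO, P301S and P301S/EKO. Other GABA nuclei also had their lowest sums for the 3 glial lists in EKO and their highest in P301S. The part of these sums in the genotype differences below was not tested except where a value without the nuclei concerned is given.

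**Figure D3:**
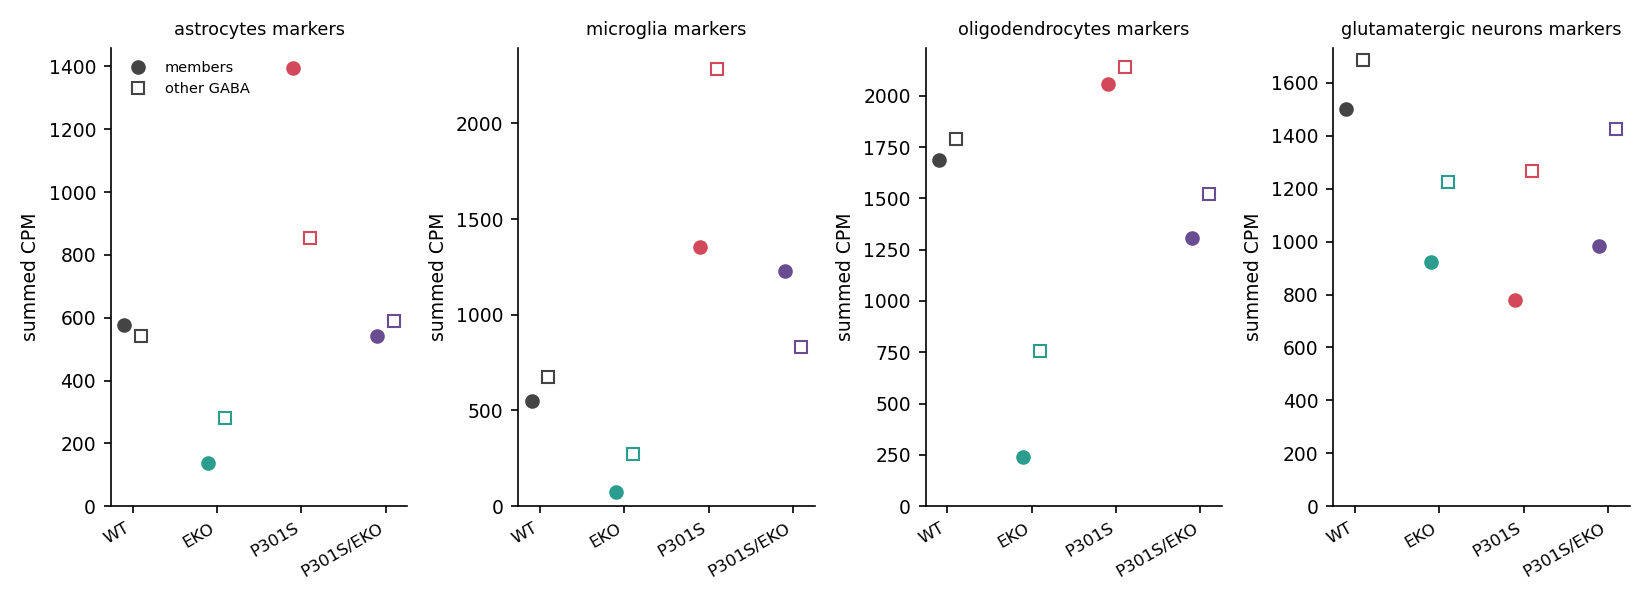
Summed CPM of the marker lists of 4 other classes in members (filled circles) and other GABA nuclei (open squares) of each library. The 3 glial lists are lowest in EKO in both kinds of nuclei, and the glutamatergic list is highest in WT in both.

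The genotype labels were checked first on Apoe, which carries lipids between cells and is made mainly by astrocytes and microglia. Apoe was at 1977 CPM in WT members (274 UMIs) and 6532 CPM in P301S members (1230 UMIs), against 2 UMIs in EKO and 1 UMI in P301S/EKO. Other GABA nuclei had 1367 CPM in WT and 7346 CPM in P301S, against 8 UMIs in EKO and 9 in P301S/EKO. Apoe lies on chr 7 at 19696109 to 19699188, minus strand. Mapt, the tau gene, was at 195, 112, 271 and 168 CPM in WT, EKO, P301S and P301S/EKO members, with intervals that overlapped. Counts are per mouse gene, so transcripts of the transgene and of the mouse gene cannot be told apart. Prnp, the prion protein gene, was at 281 and 262 CPM in WT and EKO members and at 467 and 517 CPM in P301S and P301S/EKO members, so both tau libraries stood above both others, with limits that overlapped in part. The ratio was 1.66 (1.13 to 2.49) for P301S over WT and 1.97 (1.14 to 3.52) for P301S/EKO over EKO, beside 1.58 and 1.66 in other GABA nuclei.

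P301S was set against WT to show the tau transgene with Apoe present. Among 2988 genes with 20 or more UMIs, 527 (17.6%) were higher in P301S members by 1.5-fold or more and 348 (11.6%) were lower. With median-of-ratios scaling the split was 422 and 451. Among genes with at least 50 UMIs, the interval lay wholly beyond 1.5-fold for 15 higher and 7 lower genes. The highest was Gfap, an astrocyte filament gene, at 89 against 3 UMIs and 21.8-fold (7.23 to 108), with 43 of the 89 UMIs in 1 nucleus. Mt2, C1qa, Cd63, Neat1 and Ttr followed at 3.92-fold to 5.34-fold. These are genes of glia, choroid plexus or many cell types, and in other GABA nuclei the 6 genes were 2.56-fold to 9.95-fold higher. Neat1, a nuclear noncoding RNA, was 4.20-fold higher, and its log2 ratio of 2.06 became 1.48 without the largest member of each library. Under the same setting C1qa went from 2.14 to 1.40 and Ttr from 1.96 to 1.56. In P301S, 1 member held 38 C1qa UMIs and 1 member held 48 Ttr UMIs. Without mixed nuclei, Mt2 and Cd63 had log2 ratios of -1.42 and -2.12 on 1 and 2 UMIs.

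The 6 lowest genes were Ntng1, Fam19a1, Lingo2, Negr1, Rps6kb2 and Atp2b1. Ntng1, which encodes the axon guidance protein netrin-G1 (chr 3, 109780040 to 110144011, minus strand), was at 81 UMIs (585 CPM) in WT members and 21 UMIs (112 CPM) in P301S members, 5.24-fold lower (3.21 to 8.92), while in other GABA nuclei it was 1.59-fold lower. In WT, 16 of 40 members held an Ntng1 UMI and 1 of them held 23. Ntng1 is also on the list of 10 thalamic GABA neuron markers, and was the 1 gene of it measured in this comparison. Whether GABA nuclei from outside the hippocampus were among the members was not tested. Fam19a1, a secreted neuronal protein gene, was 3.93-fold lower in members and 2.98-fold lower in other GABA nuclei, and stood at 1484 CPM in WT glutamatergic nuclei. Its log2 ratio of -1.95 became -0.19 without the members that held Slc17a7. Lingo2 and Negr1, adhesion genes, were 3.50-fold and 2.50-fold lower, and Rps6kb2, a ribosomal S6 kinase gene, was 2.34-fold lower. Without mixed nuclei Negr1 had a log2 ratio of 0.53 on 14 UMIs. Atp2b1, a plasma membrane calcium pump gene, was 2.34-fold lower (1.67 to 3.30) in members and 1.81-fold lower in other GABA nuclei. Its log2 ratio of -1.22 was -0.01 after subtraction of free RNA. Values after that subtraction rest on few Slc17a7 UMIs and are uncertain, as the closing section describes.

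P301S/EKO was set against EKO to show the transgene without Apoe, in libraries not used for P301S over WT. Among 1055 genes, 143 (13.6%) were past 1.5-fold upward and 164 (15.5%) downward. The interval lay beyond 1.5-fold for 2 genes, both higher. Cst3, the cystatin C gene, was at 312 CPM in EKO and 1061 CPM in P301S/EKO, 3.40-fold higher (2.15 to 5.55), and Fth1, a ferritin gene, was 2.62-fold higher (1.55 to 4.56). Other GABA nuclei showed 1.89-fold and 1.73-fold. Both genes are abundant in glia as well as neurons, and the glial sums above were also higher in P301S/EKO than in EKO.

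The comparisons of the transgene with and without Apoe share no library. Of 247 genes with at least 50 UMIs in each, 3 were at least 1.5-fold higher in both (Clu, Cst3 and Prnp) and 3 at least 1.5-fold lower (Grin2a, Atp2b1 and Cntnap5a). Grin2a, an NMDA receptor subunit gene, was at 476 and 281 CPM in WT and P301S members and at 437 and 207 CPM in EKO and P301S/EKO members. Its ratio was 1.69-fold lower (1.16 to 2.48) and 2.11-fold lower (1.14 to 4.08), against 1.28-fold and 1.06-fold lower in other GABA nuclei. Without members holding Slc17a7, the log2 ratio for P301S over WT was -0.06 in place of -0.75. With equal weight per nucleus the P301S over WT ratios of Clu, Cst3 and Cntnap5a lay inside 1.5-fold, at 0.48, 0.25 and -0.49 on the log2 scale. Prnp was at 0.44 with at least 2 Pvalb UMIs per member and 0.48 without members holding Sst. Clu, which astrocytes express strongly, had -0.08 without mixed nuclei, and its level was highest in the library with the highest glial sums. The value of Atp2b1 after subtraction of free RNA is given above.

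EKO was set against WT to show loss of Apoe without the transgene. Members of the libraries compared for Apoe loss also differed in sex-linked genes, as given with the gene lists below. The part of this difference in either comparison of Apoe loss was not tested. Among 1735 genes, 234 (13.5%) were past 1.5-fold upward and 343 (19.8%) downward. The lean downward was not kept without members holding Slc17a7, with 142 and 146 genes, and it turned without mixed nuclei, with 68 and 39. The interval lay beyond 1.5-fold for 1 higher and 14 lower genes. Apart from Apoe, genes at the lower end were Ptgds and Trf, oligodendrocyte genes that were 19.4-fold and 18.5-fold lower in members, and Rnf121 at 10.3-fold lower. Of the 40 WT members, 21 held a Ptgds UMI and 1 of them held 61. Of the 31 EKO members, 4 held a Ptgds UMI, with at most 2. In other GABA nuclei Ptgds was 1.32-fold lower, Trf 2.44-fold and Rnf121 13.1-fold. Without mixed nuclei the log2 ratios of Ptgds and Trf were -1.12 and -1.54 in place of -4.18 and -3.98.

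P301S/EKO was set against P301S to show loss of Apoe in the presence of the transgene. Among 2338 genes, 237 (10.1%) were past 1.5-fold upward and 581 (24.9%) downward, and median-of-ratios scaling gave 315 and 490. The median log2 ratio of all these genes was -0.13, so single ratios are to be read against that shift. The interval lay beyond 1.5-fold for 1 higher gene, Ntng1, at 3.48-fold (1.93 to 6.39) against 1.36-fold in other GABA nuclei, and for 13 lower genes. After Apoe the lowest were Apod, AY036118, Ptgds, Gm42418 and Rnf121, 4.54-fold to 7.06-fold lower, all of them 2.60-fold to 4.96-fold lower in other GABA nuclei as well. In P301S 166 of 292 Ptgds UMIs were in 1 member, and 44 of 86 Apod UMIs were in 1 member. Without mixed nuclei the log2 ratio of Ptgds was -0.20 in place of -2.50 and that of Apod 1.51 on 1 UMI. With at least 2 Pvalb UMIs per member that of Ntng1 was -3.38 on 7 UMIs. Both comparisons of Apoe loss held 2 genes at least 1.5-fold higher, Tle2 and Shank1, and 16 lower among 415 genes. Shank1, a postsynaptic scaffold gene, had ratios of 1.69 (1.26 to 2.27) and 1.60 (1.20 to 2.13), beside 1.47 and 1.36 in other GABA nuclei. Its second log2 ratio was 0.36 with equal weight per nucleus, inside 1.5-fold.

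**Figure D4:**
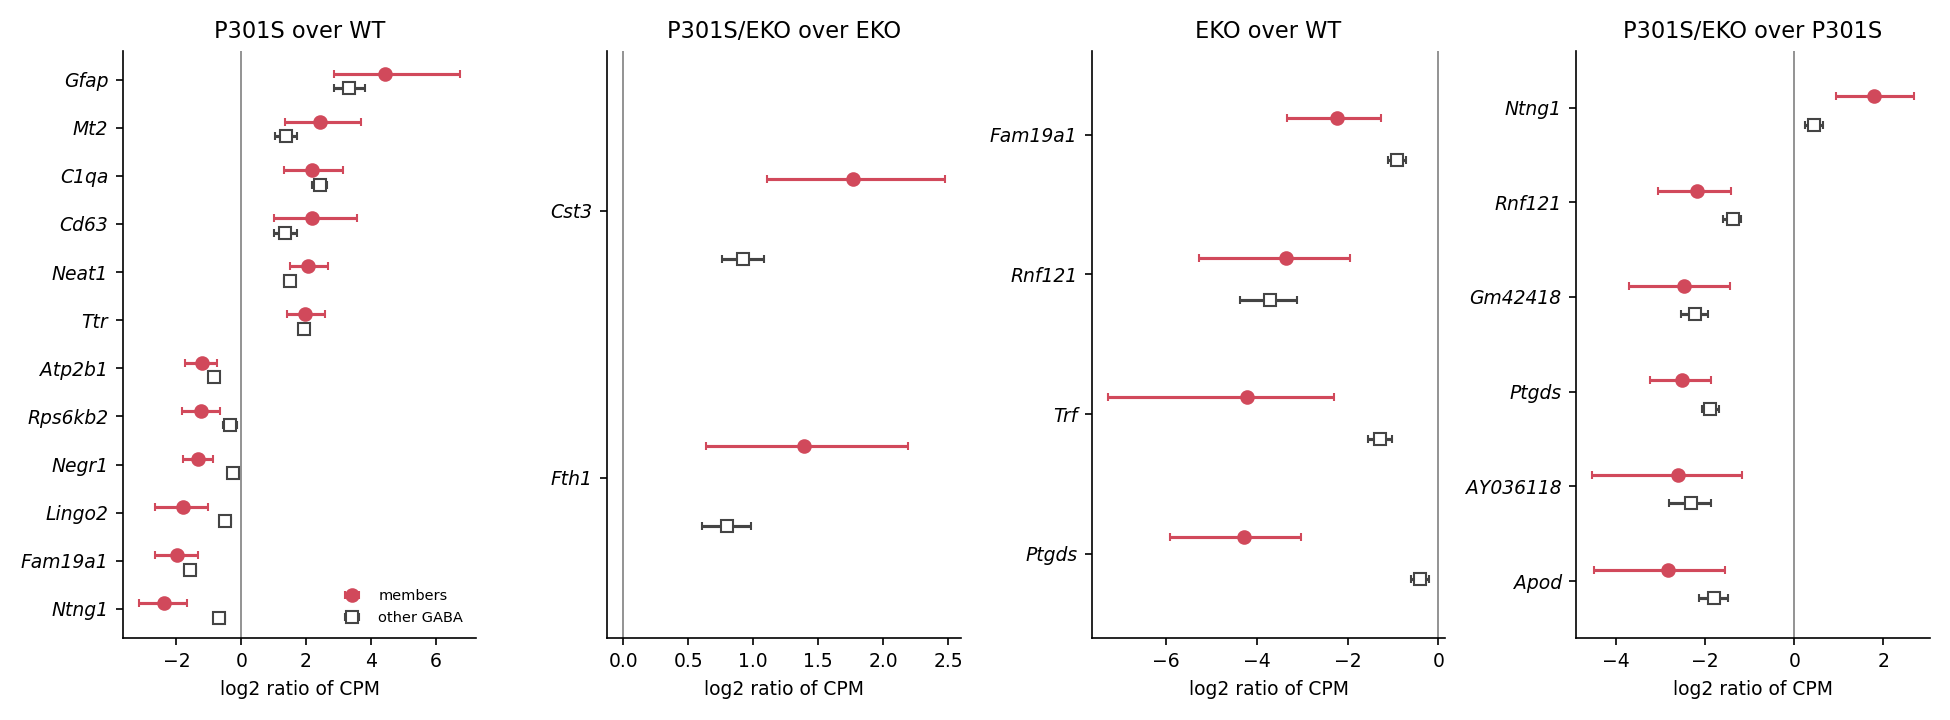
Log2 ratio of CPM for the genes with the highest and lowest ratios in each genotype comparison, in members (filled circles) and other GABA nuclei (open squares); bars are exact 95% intervals of counting error, and Apoe and genes not reported here are left out. Other GABA nuclei lie on the same side of 0 as members for each gene shown, and nearer to 0 for most of them.

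Genes of the fast-spiking type were then followed across the 4 libraries. Kcnc1 was at 678, 1211, 850 and 1086 CPM in WT, EKO, P301S and P301S/EKO members, so both libraries without Apoe were above both with it. Other GABA nuclei had the same order at 334, 558, 368 and 446 CPM. The Kcnc1 ratio for EKO over WT was 1.78 (1.33 to 2.40) in members and 1.67 in other GABA nuclei. Its log2 ratio of 0.83 was 0.39 without members holding Slc17a7 and 0.07 after subtraction of free RNA. For P301S/EKO over P301S the Kcnc1 log2 ratio was 0.35, inside 1.5-fold. Without mixed nuclei the log2 ratios of the 2 comparisons were 0.28 and -0.01. Inpp5j was highest in EKO, with a ratio of 2.17 (1.45 to 3.26) over WT in members and 1.33 in other GABA nuclei. Its log2 ratio of 1.11 was 0.46 after subtraction of free RNA, inside 1.5-fold. Slc32a1, the vesicular GABA transporter gene used by the rule, was at 505, 874, 589 and 543 CPM. These levels describe the choice of members and are no result.

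Kcnc2, the gene of the related Kv3.2 channel, rested on 5, 17, 21 and 4 UMIs in WT, EKO, P301S and P301S/EKO members. P301S over WT gave a 3.09-fold higher level (1.13 to 10.5), and the gene was 4.10-fold lower in P301S/EKO than in EKO (1.34 to 16.8). In other GABA nuclei the same ratios were 1.02 and 0.869. Trps1, a transcription factor gene and the 1 gene of the axo-axonic list with 20 UMIs in a comparison, showed the same pattern at 72.2, 325, 181 and 116 CPM. Both genes were higher in EKO and P301S members than in WT and P301S/EKO members, on few UMIs. The P301S/EKO over P301S ratios were 0.464 (0.116 to 1.37) for Kcnc2 and 0.645 (0.272 to 1.37) for Trps1. Both of these intervals included no change. In other GABA nuclei the ratios of that comparison were 1.11 for Kcnc2 and 0.585 (0.420 to 0.802) for Trps1.

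**Figure D5:**
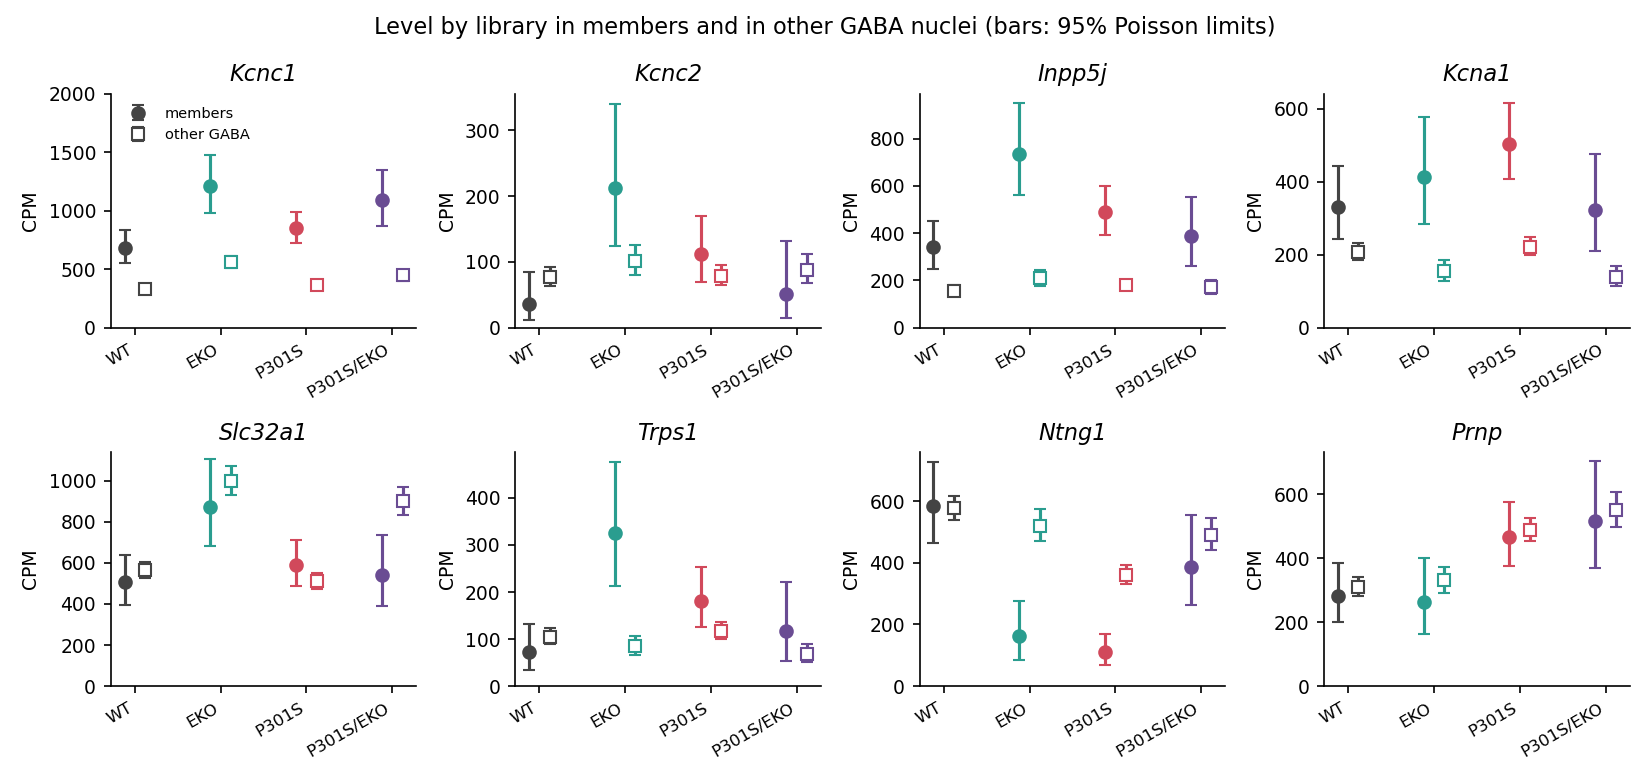
CPM of 8 genes in members (filled circles) and other GABA nuclei (open squares) of each library; bars are exact 95% Poisson limits. Kcnc1 is higher in members than in other GABA nuclei in each library, Kcnc2 and Trps1 are highest in EKO members, and Prnp is higher in both tau libraries in both kinds of nuclei.

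Gene lists were described by the number of members at least 1.5-fold apart and by their median log2 ratio. The same over all genes was 17.6% higher and 11.6% lower with a median of 0.07 for P301S over WT, and 13.6% and 15.5% with a median of -0.07 for P301S/EKO over EKO. It was 13.5% and 19.8% with a median of -0.04 for EKO over WT, and 10.1% and 24.9% with a median of -0.13 for P301S/EKO over P301S. A count near these shares says nothing particular about a list.

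Of 12 measured genes of the parvalbumin class, 6 were higher and none lower in P301S over WT, beside 17.6% and 11.6% of all genes, with a median of 0.54 against 0.13 in other GABA nuclei. That median was 0.11 without members holding Slc17a7 and -0.02 after subtraction of free RNA. In EKO over WT 4 of 7 were higher and none lower, beside 13.5% and 19.8% of all genes. The median of 0.83 was the ratio of Kcnc1, whose values without Slc17a7-holding members and after subtraction of free RNA are given above. Under those settings fewer than 5 genes of the list were measured and no median was taken. In P301S/EKO over EKO none of 5 was higher and 1 was lower (median -0.33), beside 13.6% and 15.5% of all genes. In P301S/EKO over P301S none of 11 was higher and 3 were lower (median -0.35), beside 10.1% and 24.9%.

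Fast-spiking potassium and HCN channel genes gave 5 of 15 higher and 1 lower in P301S over WT, beside 17.6% and 11.6% of all genes. The median of 0.32 was again the ratio of Kcnc1. The list median was 0.12 without members holding Slc17a7 and -0.13 after subtraction of free RNA, and the log2 ratio of Kcnc1 itself was -0.12 and -0.37. In EKO over WT 5 of 11 were higher and 2 lower, beside 13.5% and 19.8% of all genes. The median of 0.43 was 0.83 and 0.28 under the same settings. In P301S/EKO over EKO none of 6 was higher and 2 were lower (median -0.36), beside 13.6% and 15.5% of all genes. In P301S/EKO over P301S 1 of 14 was higher and 3 were lower (median 0.12), beside 10.1% and 24.9%.

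Synaptic and net genes were described the same way. Vesicle release genes had medians between -0.14 and 0.14 in the 4 comparisons, with Vamp1 (22 against 3 UMIs) and Cplx1 (30 against 5 UMIs) the furthest apart in P301S over WT. GABA receptor and inhibitory postsynapse genes had medians between -0.07 and 0.14. Perineuronal net genes gave 4 of 8 higher and none lower in P301S over WT (median 0.58, beside 17.6% of all genes higher), led by the protease gene Adamts15 at 22 against 4 UMIs. They gave 2 higher and 3 lower of 7 in P301S/EKO over P301S (median -0.30, beside 10.1% and 24.9%). Hapln4, a link protein gene of the net, was at 115, 125, 196 and 64.7 CPM in members, on 16, 10, 37 and 5 UMIs. Bcan was within 1.5-fold in each of the 4 comparisons.

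Energy genes, which matter to cells with a high firing rate, were on a list of 40 genes. Of 35 measured nuclear genes of oxidative phosphorylation, 1 was higher and 3 were lower in P301S over WT (median -0.12). The shares of all genes there were 17.6% and 11.6%. In EKO over WT 3 of 25 were higher and 5 lower (median -0.26), beside 13.5% and 19.8% of all genes. In P301S/EKO over EKO 5 of 16 were higher and none lower (median 0.22), beside 13.6% and 15.5%. In P301S/EKO over P301S 8 of 28 were higher and 3 lower (median 0.06), beside 10.1% and 24.9%. Other GABA nuclei had medians of -0.15, -0.15, 0.22 and 0.25 in these comparisons in turn. Ribosomal protein genes had 9 of 19 lower and 1 higher in EKO over WT, beside 19.8% of all genes lower, and 12 of 31 lower and 1 higher in P301S/EKO over P301S, beside 24.9% lower. Their medians were -0.42 and -0.36, against -0.36 and -0.25 in other GABA nuclei.

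Stress, receptor and cytoskeletal genes completed the description. Heat shock genes had none of 13 higher and 2 lower in P301S over WT, beside 11.6% of all genes lower, and 3 of 9 higher in P301S/EKO over P301S, beside 10.1% higher (median 0.46). Glutamate receptor genes, which carry the excitatory drive onto these cells, gave none higher and 3 of 14 lower in P301S over WT (median -0.19, beside 11.6% of all genes lower). Grin2a, for which a ratio near 0 without Slc17a7-holding members is given above, was among the 3. They gave none higher and 3 of 12 lower in P301S/EKO over EKO (median -0.29, beside 15.5% of all genes lower). Other GABA nuclei had medians of -0.22 and -0.07 for these genes. Tau and microtubule genes gave 6 higher and 3 lower of 23 in P301S over WT (median 0.13, beside 17.6% and 11.6% of all genes). In P301S/EKO over EKO they gave 2 higher and 2 lower of 11 (median 0.18, beside 13.6% and 15.5%). They gave 2 higher and 6 lower of 18 in EKO over WT (median -0.08, beside 13.5% and 19.8%). In P301S/EKO over P301S they gave 2 higher and 6 lower of 23 (median -0.30, beside 10.1% and 24.9%). Microglial markers, which are not genes of interneurons, were higher in 5 of 5 measured in P301S over WT, beside 17.6% of all genes. Their median was 1.66, against 1.95 in other GABA nuclei. In P301S/EKO over EKO 3 of 3 microglial markers were higher, beside 13.6% of all genes. The median there was 3.81, against 1.41 in other GABA nuclei. In EKO over WT the 1 microglial marker measured was lower, beside 19.8% of all genes. In P301S/EKO over P301S 1 of 6 was higher and 2 were lower (median 0.13, beside 10.1% and 24.9%). Sex-linked genes gave none higher and 3 of 4 lower in EKO over WT (median -0.99, beside 19.8% of all genes lower). In P301S/EKO over P301S 4 of 4 were lower (median -1.65, beside 24.9%). Other GABA nuclei had medians of -0.83 and -0.997 for these genes. In P301S over WT 2 of 4 were higher and 1 was lower (median 0.36). The 1 gene measured in P301S/EKO over EKO was within 1.5-fold. The cause was not tested.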

How the data were processed

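The deposited matrices hold UMI counts per gene and barcode, whole numbers that were not normalized, for 27998 genes. Per the submitters' processing notes, the authors used Cell Ranger, Seurat and the mm10 genome. Tool versions, and whether introns were counted, are not given in the sources used. Barcodes were filtered and members chosen as described above. Per library, the counts of each class of nuclei were added up and scaled to CPM. Ratios carry exact conditional binomial intervals, levels exact Poisson limits and shares Clopper-Pearson limits. Log2 ratios use a prior of 0.5 UMI. A gene counted as higher or lower at 1.5-fold with at least 20 UMIs over the 2 libraries. Comparisons that have a library in common share it, so their values are given side by side only.

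Named genes were the 6 highest and 6 lowest per comparison among genes with at least 50 UMIs and an interval beyond 1.5-fold, up to 4 per list, up to 6 per factor and direction, and 12 higher and 8 lower beside other GABA nuclei. Ntng1, Kcnc2, Trps1 and single list genes named elsewhere, and the threshold examples, were chosen after their values were seen. Members and the 35 gene lists were chosen with earlier results of these data known. The ratio and its interval were tested on simulated data. Software was Python 3.11.15 with pandas 2.3.3, matplotlib 3.10.9, scipy 1.17.1 and numpy 2.4.6. Positions are from GENCODE vM21 on GRCm38 (mm10). The alternatives tried, with 2 added after the data were seen, are given in the closing section. Subtraction of free RNA used the summed profile of all barcodes in a library, at the share that accounts for the Slc17a7 UMIs of its members. Every Slc17a7 UMI of a member was taken as free RNA, and the profile included the GABA nuclei themselves. Some genes are not reported here.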

Additional observations from a re-analysis of the deposited data

Results flagged for a closer look

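For the 6 genes below the transgene comparisons pointed in opposite directions with and without Apoe, each by at least 1.5-fold. The share of all genes that did so is not given. Of all genes, 17.6% were higher and 11.6% lower in P301S over WT, and 13.6% and 15.5% in P301S/EKO over EKO. The difference between the comparisons was not tested, since each rests on 1 library per genotype. Log2 ratios of P301S over WT and of P301S/EKO over EKO were -2.36 and 1.23 for Ntng1, -1.78 and 1.36 for Lingo2, and -1.95 and 1.15 for Fam19a1. For Fam19a1 the first was -0.19 without members holding Slc17a7, and the second was 0.05 without members holding Sst. The log2 ratios of the same comparisons were 1.55 and -1.91 for Kcnc2, -0.62 and 0.82 for Rtn1, and 1.29 and -1.43 for Trps1.

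For the 4 genes below the comparisons of Apoe loss pointed in opposite directions without and with the transgene, again not tested. Each ratio was at least 1.5-fold, with an interval that excluded no change. Kcnc2 (log2 ratios 2.41 and -1.05) and Trps1 (2.10 and -0.62) also did so by at least 1.5-fold. The P301S/EKO over P301S intervals of Kcnc2 and Trps1 included no change. Of all genes, 13.5% were higher and 19.8% lower in EKO over WT, and 10.1% and 24.9% in P301S/EKO over P301S. Log2 ratios of EKO over WT and of P301S/EKO over P301S were -1.82 and 1.76 for Ntng1, -0.65 and 0.65 for Negr1, -1.34 and 1.81 for Lingo2, and -2.19 and 0.92 for Fam19a1. The 2 sets of comparisons use the same 4 libraries, so a gene in both is 1 pattern. Of the Ntng1 UMIs in members, 23 of 81 in WT and 10 of 30 in P301S/EKO came from 1 nucleus. With at least 2 Pvalb UMIs per member, Ntng1 was lower in P301S/EKO than in EKO and than in P301S, on 4 and 7 UMIs.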

How the results depend on the processing

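Requiring 500 genes per nucleus left out no member, so the counts between genotypes could not change. Members with Sst UMIs, or the largest member (chosen after seeing the data), were left out in turn. Median-of-ratios scaling and equal weight per nucleus were also tried. All these settings kept all total counts within 1.5 times, where run. In P301S/EKO over EKO the split of 143 higher and 164 lower became 75 and 146 without members with Sst UMIs. At least 2 Pvalb UMIs left 7, 10, 17 and 8 members (WT, EKO, P301S, P301S/EKO), which were 1.35%, 2.31%, 3.58% and 2.07% of GABA nuclei. Genes past 1.5-fold then numbered 326, 74, 160 and 241 in P301S over WT, P301S/EKO over EKO, EKO over WT and P301S/EKO over P301S, in place of 875, 307, 577 and 818. Leaving out mixed nuclei left 8, 18, 4 and 7 members (1.55%, 4.17%, 0.842% and 1.81%) and counts of 33, 97, 107 and 25; beside other GABA nuclei 53 genes passed in place of 23, with the splits given above. Both settings leave fewer UMIs, and the cause of each move was not tested. Free RNA was estimated from Slc17a7 at 54.4%, 10.7%, 16.4% and 17.3% of member UMIs, on Slc17a7 UMIs in only 11, 2, 6 and 1 members. The error of these shares was not estimated, so values after subtraction are uncertain. Subtraction gave 340 in EKO over WT. No Slc17a7 UMI in a member (chosen after seeing the data) gave 288 there and 37 beside other GABA nuclei. A minimum of 1 UMI gave 7731, 7056, 7871, 8644 and 894. Thinning to 2000 UMIs gave 11.3% in EKO, and to 1000 UMIs 3.94%, 4.42%, 5.04% and 4.20%.

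Of the single-gene values of the genes reported here, under these alternatives, 968 held, 117 moved and 22 reversed. Held means inside the main counting interval or, beside other GABA nuclei, the same sign in each library. The minimum of 1 UMI changes no ratio and 500 genes per nucleus left out no member. Each gave 115 of the 968, so those genotype ratios could not move. Of the 22 reversed, 16 rest on fewer than 20 UMIs, and the cause was not tested. Reversed log2 ratios with 2 Pvalb UMIs were -3.12 and -1.78 (Ntng1 and Fam19a1, P301S/EKO over EKO), -0.51 (Tle2, EKO over WT), and -3.38 and -0.66 (Ntng1 and Fam19a1, P301S/EKO over P301S). Without Sst UMIs, Fam19a1 was -0.67 in that last comparison. Without mixed nuclei they were -1.42, -2.12, 0.53, 0.51 and -0.076 (Mt2, Cd63, Negr1, Grin2a and Clu, P301S over WT), -2.32 (Fam19a1, P301S/EKO over EKO), -0.65, 0.88, -0.083 and 0.61 (Cacna2d2, Ntng1, Tle2 and Mapt, EKO over WT), 1.51 and 3.07 (Apod and Trf, P301S/EKO over P301S), and -3.17 for Gm15856 beside other GABA nuclei. With free RNA subtracted, Fam19a1 and Grin2a were 4.16 and 2.71 in P301S over WT and Cacna2d2 was -0.13 in EKO over WT. No paired analysis was possible because each genotype has 1 library. Depth limits all single-gene statements: most members held 1 Pvalb UMI, and genes under 20 UMIs over a pair of libraries were not called.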
